A study of Mus musculus with 2 samples.

Results

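The miR-181 family was examined in microvesicles (MVs), the small membrane vesicles that cells shed and that carry RNA, released by mouse bone marrow mesenchymal stem cells (MSCs). Its entries were all those in the deposited values whose name, or any of its slash-separated names, has the stem mmu-miR-181a, mmu-miR-181b, mmu-miR-181c or mmu-miR-181d, whatever the suffix. This gave 7 of 831 entries, namely the 5p arms of miR-181a, miR-181b, miR-181c and miR-181d and the 3p arms of miR-181a-1, miR-181a-2 and miR-181c. The entries were selected on their names, and the family itself was chosen by a procedure that had the intensities and ratios of both arrays in view, so everything given here is a description and nothing was tested.

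EPO-MVs were the MVs of MSCs grown for 48 h in complete medium with 100 IU/ml erythropoietin (EPO), the hormone that drives red blood cell formation. MSC-MVs came from MSCs grown for 48 h in the same medium without EPO. Both groups were primary cells of young male C57BL/6 mice at the third passage, no genetic change is named, and the medium of both held fetal bovine serum. Each group was 1 array, so no ratio below has a replicate error, and array and treatment cannot be told apart. The normalization takes out a common factor of each array, so the values are relative, and they cannot tell fewer MVs that carry a miRNA from less of it in each of them.

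miRNAs are short RNAs that pair with messenger RNAs, mostly through the seed, bases 2 to 8 counted from the 5′ end, and lower their translation or stability. Each is cut from a hairpin, whose 5′ side gives the 5p arm and whose 3′ side gives the 3p arm. The miR-181 family is best known from blood cells, where miR-181a promotes the B-cell lineage and sets how strongly developing T cells respond to antigen, and miR-181b is known as a brake on NF-κB signalling in endothelium. The family is made from 6 mouse genes that lie in pairs on 3 chromosomes.

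The 5p arms carry the family's shared seed, and their RefSeq sequences are printed here because their differences outside it set the members apart. Capitals mark the seed.
mmu-miR-181a-5p: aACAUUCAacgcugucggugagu
mmu-miR-181b-5p: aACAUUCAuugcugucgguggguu
mmu-miR-181c-5p: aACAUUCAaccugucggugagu
mmu-miR-181d-5p: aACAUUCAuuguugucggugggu

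All 4 had the seed ACAUUCA, and 0 of the other entries matched to RefSeq had it. In positions counted from 1 at the 5′ end, miR-181d-5p differs from miR-181b-5p by C12U and lacks its last base. From miR-181a-5p to miR-181b-5p the changes were A9U, C10U and A21G, besides the last base of the latter. miR-181c-5p was 1 insertion or deletion away from miR-181a-5p, with lengths of 22 and 23 bases. Whether the array probe for any of these arms also binds another was not tested, and the probe sequences were not used here.

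The 3p arms with an entry are the passenger arms of their hairpins. They are shown because each comes from a single gene, unlike miR-181a-5p and miR-181b-5p, which are each made by 2 genes with the same mature sequence. Capitals again mark bases 2 to 8.
mmu-miR-181a-1-3p: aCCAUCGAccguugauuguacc
mmu-miR-181a-2-3p: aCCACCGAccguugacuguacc
mmu-miR-181c-3p: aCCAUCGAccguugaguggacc

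mmu-miR-181a-1-3p and miR-181c-3p shared the seed CCAUCGA, and miR-181a-2-3p had CCACCGA. From miR-181a-1-3p to miR-181a-2-3p the changes were U5C and U16C, and from miR-181a-1-3p to miR-181c-3p they were U16G and U19G. The other 3 mature names of the family in RefSeq, miR-181b-1-3p, miR-181b-2-3p and miR-181d-3p, had no entry among the values used here.

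In the RefSeq annotation of GRCm38.p6, miR-181a-5p lies at chr1:137966468-137966490 on the plus strand in Mir181a-1 and at chr2:38852741-38852763 on the plus strand in Mir181a-2. Its neighbour miR-181b-5p lies at chr1:137966650-137966673 in Mir181b-1 and at chr2:38853845-38853868 in Mir181b-2, both on the plus strand. On the minus strand of chromosome 8, miR-181c-5p lies at chr8:84178924-84178945 and miR-181d-5p at chr8:84178759-84178781. The facing arms of the paired hairpins are 120 bases apart on chromosome 1, 1038 on chromosome 2 and 103 on chromosome 8. The chromosome 2 pair overlaps the gene Nr6a1, which encodes an orphan nuclear receptor, and the long non-coding RNA gene Nr6a1os, while no other gene of the annotation overlaps the pairs on chromosomes 1 and 8. Overlap was called from positions alone, without regard to strand. The 3p arms lie at chr1:137966508-137966529 (miR-181a-1-3p, plus strand), chr2:38852785-38852806 (miR-181a-2-3p, plus strand) and chr8:84178885-84178906 (miR-181c-3p, minus strand).

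The hairpins of Mir181a-1 (87 bases) and Mir181a-2 (76 bases) show how the same 5p arm is joined to different 3p arms. Capitals mark both arms, the 5p arm first.
Mir181a-1: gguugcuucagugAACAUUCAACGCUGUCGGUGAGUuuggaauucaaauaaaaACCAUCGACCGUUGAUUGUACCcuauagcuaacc
Mir181a-2: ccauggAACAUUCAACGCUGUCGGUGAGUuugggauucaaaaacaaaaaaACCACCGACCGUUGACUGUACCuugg

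The arms are separated by 17 bases in Mir181a-1 and by 21 bases in Mir181a-2.

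The deposited value is a normalized intensity on a linear scale, the brightness of the spots of a miRNA after the authors' median normalization. The smallest value of each array is called a step here, since all the others are whole multiples of it to within 1.83e-05 of a step. The EPO-MV array had 471 steps to an intensity of 1 and the MSC-MV array 447. The intensities of all 831 entries summed to 1957 for EPO-MVs and 2147 for MSC-MVs, and their medians were 0.206 and 0.195. Ratios are EPO-MV over MSC-MV, and an entry was past 1.5-fold if its ratio reached 1.5 or was no higher than 0.667. Because probes differ in how well they bind, intensities are compared between arrays for the same entry, not between entries.

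Of the 7 miR-181 entries, 6 were dimmer in EPO-MVs than in MSC-MVs and 1, miR-181d-5p, was marginally brighter. For 5 of them the ratio stayed below 1 when each value was moved by 1 step, and for miR-181c-3p, with 2 and 3 steps, it did not. Past 1.5-fold, 3 were lower in EPO-MVs (miR-181b-5p, miR-181a-2-3p and miR-181c-3p), 0 were higher and 4 stayed within 1.5-fold. The count is 2 without miR-181c-3p. It is 1, miR-181b-5p, if a pseudocount of 0.0573 is added to every value, and the same 1 entry of 5 with a minimum of 30 steps on both arrays or of 3 with a minimum of 60, since these minimums leave out miR-181a-2-3p and miR-181c-3p. Over all 831 entries, 25.4% were past 1.5-fold in either direction, 7.58% as lower and 17.8% as higher, and 43.9% had a ratio below 1. The share past 1.5-fold in either direction was 6.5% with the pseudocount. It was 10.8% of 573 entries with at least 30 steps and 8.64% of 463 with at least 60. The median log2 ratio was -0.48 over the 7 entries and 0.05 over all entries. For the miR-181 entries it was -0.25 with the pseudocount and -0.26 with at least 30 steps. With quantile normalization and after lowess it was -0.68. The family was chosen with this contrast known, so nothing is read from its counts against these shares. The split of all entries, 148 higher and 63 lower, became 95 and 95 with quantile normalization, which gives both arrays the same distribution, and 92 and 96 after lowess, which takes out the dependence of ratios on brightness, while the 7 miR-181 entries kept 6 with a ratio below 1 in both.

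**Figure D1:**
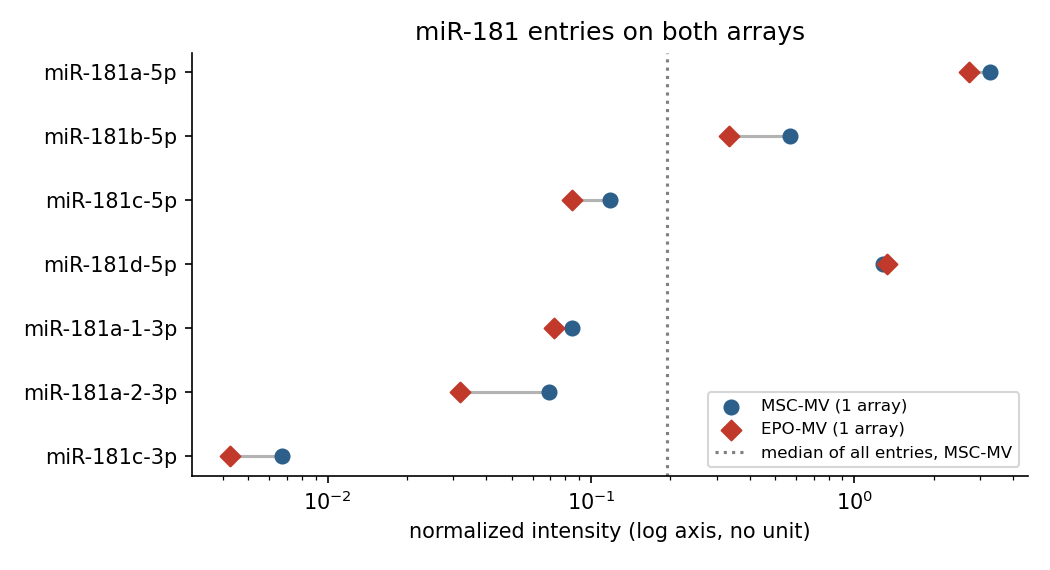
Normalized intensity (log axis, no unit) of the 7 miR-181 entries, 1 array each for MSC-MVs (circles) and EPO-MVs (diamonds), with the MSC-MV median of all entries as a dotted line. The EPO-MV point lies to the left of the MSC-MV point for 6 entries and just to the right for miR-181d-5p; rows should not be compared with each other because probes differ.

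mmu-miR-181a-5p, the arm with the T-cell role named above, had an intensity of 2.73 in EPO-MVs (1284 steps) and 3.26 in MSC-MVs (1458 steps). Its ratio of 0.836 lay within the 1.5-fold limits. Both values are far above the smallest value, and moving each by 1 step gave 0.835 to 0.837.

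mmu-miR-181b-5p, the arm linked to NF-κB, had an intensity of 0.335 in EPO-MVs (158 steps) and 0.568 in MSC-MVs (254 steps). The ratio of 0.590 is a 1.69-fold lower value in EPO-MVs. It was the only 5p arm of the family past 1.5-fold in the deposited values. All entries were ordered by mean log2 intensity and divided into 4 brightness groups. In the third of these, which holds miR-181b-5p, 9.66% of 207 entries were past 1.5-fold, and 4.35% were lower.

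mmu-miR-181c-5p had an intensity of 0.0849 in EPO-MVs (40 steps) and 0.119 in MSC-MVs (53 steps). Its ratio of 0.716 was the nearest of the members that did not pass 1.5-fold, and the 0.633 of miR-181c-3p was the nearest of those that did. With quantile normalization the ratio of miR-181c-5p was 0.623 and after lowess 0.625, both past 1.5-fold. After re-centring it was 0.692 and with the pseudocount 0.809, both within 1.5-fold.

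mmu-miR-181d-5p had an intensity of 1.34 in EPO-MVs (629 steps) and 1.29 in MSC-MVs (575 steps). The ratio of 1.04 was the highest of the family and near the median over all entries. It comes from the same gene pair as miR-181c-5p on chromosome 8.

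The 5p arms of the family, which share a seed, thus spread from a log2 ratio of -0.76 to 0.05, with a median of -0.37 against 0.02 over the 351 entries of all 5p arms. The ratio of miR-181b-5p was 0.569 of that of miR-181d-5p, although C12U is the only change in the 23 bases that both have. Moving each of the 4 values behind this comparison by 1 step gave 0.561 to 0.576. A common scaling factor of an array cancels in such a comparison, but a scaling that depends on brightness need not. The pair of miR-181b-5p and miR-181d-5p was the only 1 of the 6 pairs of 5p arms in which the deposited ratios differed by more than 1.5-fold. The next was miR-181c-5p with 0.690 of the ratio of miR-181d-5p, and a shift of 1 step in each value moved this to between 0.658 and 0.723, across the limit. With quantile normalization miR-181c-5p and miR-181d-5p had 0.623 and 1.12, and after lowess 0.625 and 1.06, more than 1.5-fold apart in both. After lowess miR-181a-5p and miR-181b-5p, with 0.890 and 0.580, were also more than 1.5-fold apart.

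**Figure D2:**
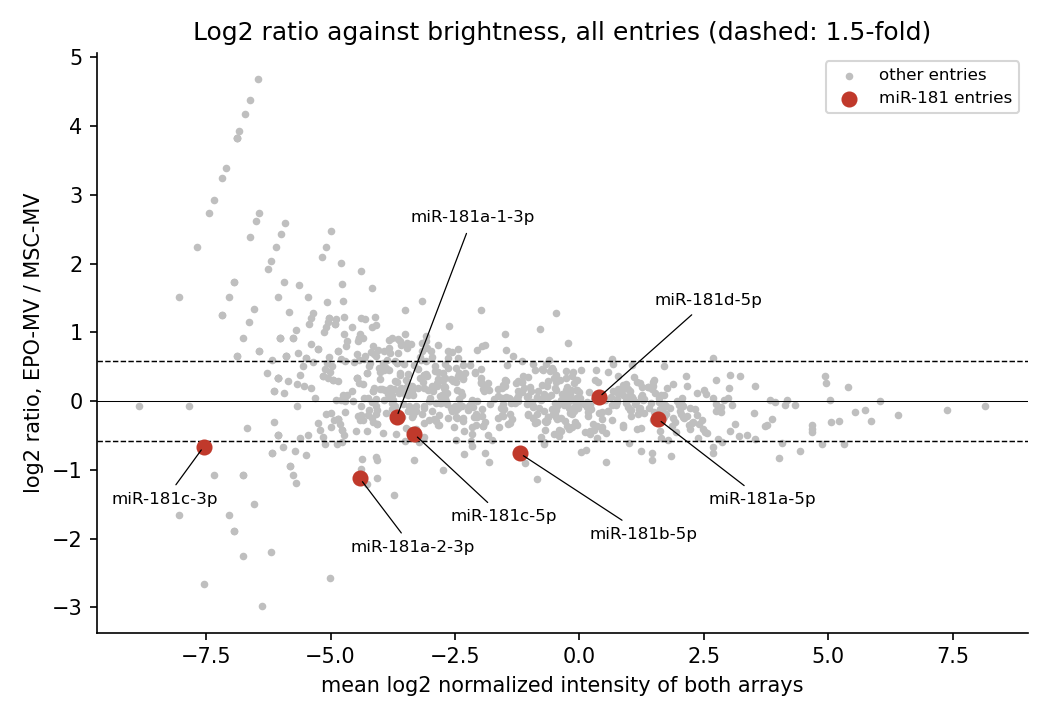
Log2 ratio of EPO-MV over MSC-MV against the mean log2 normalized intensity of both arrays, for the 7 miR-181 entries (large points) and the other entries (small points), with dashed lines at 1.5-fold. The scatter is widest at the dim end, where miR-181c-3p and miR-181a-2-3p lie, and miR-181b-5p lies below the lower line among brighter entries.

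mmu-miR-181a-1-3p, the passenger arm of the chromosome 1 gene, had an intensity of 0.0722 in EPO-MVs (34 steps) and 0.0850 in MSC-MVs (38 steps). Its ratio was 0.849, close to the 0.836 of the 5p arm.

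mmu-miR-181a-2-3p, the passenger arm of the chromosome 2 gene, had an intensity of 0.0318 in EPO-MVs (15 steps) and 0.0694 in MSC-MVs (31 steps). The ratio of 0.459 is a 2.18-fold lower value in EPO-MVs and the lowest of the family in the deposited values. In these it was the only member past 2-fold, where 10.6% of all entries lay. Moving each value by 1 step gave ratios from 0.415 to 0.506. With quantile normalization miR-181c-3p was lower (0.333 against 0.361), as it was after lowess (0.300 against 0.367). With the pseudocount miR-181b-5p was lower (0.628 against 0.704).

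mmu-miR-181c-3p had an intensity of 0.00425 in EPO-MVs (2 steps) and 0.00671 in MSC-MVs (3 steps), which gives a ratio of 0.633. A shift of 1 step in each value moved this ratio to between 0.237 and 1.42, so the values do not resolve its direction.

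The 3p arms of both miR-181a genes were then set side by side. The ratio of miR-181a-1-3p was 1.85 times that of miR-181a-2-3p, with 1.59 to 2.16 when each value was moved by 1 step. With a pseudocount of 0.0573 added to every value this was 1.29, no longer past 1.5-fold, and a minimum of 30 steps leaves out miR-181a-2-3p. miR-181a-5p, which both genes make, had a ratio near that of miR-181a-1-3p (0.984 of it) and 1.82 times that of miR-181a-2-3p. Both 3p entries past 1.5-fold were in the dimmest group, in which 61.1% of 208 entries were past 1.5-fold, 14.9% as lower and 46.2% as higher in EPO-MVs.

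Brightness moved with the ratio over the whole array. The median log2 ratio was 0.49 in the dimmest group, 0.17 in the second, 0.02 in the third and -0.09 in the brightest, and the SD over entries went from 1.26 in the dimmest to 0.30 in the brightest. Against these, miR-181a-5p (-0.26) and miR-181d-5p (0.05) are in the brightest group, where 8.65% of entries were past 1.5-fold and the middle 80% of entries lay between -0.53 and 0.25. In the second group, where 22.1% were past 1.5-fold and this span was -0.33 to 0.76, miR-181c-5p (-0.48) lay below it and miR-181a-1-3p (-0.24) inside it. miR-181b-5p (-0.76) lay below the third group's span of -0.39 to 0.45. In the dimmest group the span was -0.80 to 2.06, with miR-181a-2-3p (-1.12) below it and miR-181c-3p (-0.66) inside it. The part of brightness in the members' ratios was not tested.

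The spread among the 5p arms was set beside that of the other miRNAs that share a seed. Among entries with at least 30 steps on both arrays, 13 seeds had 3 or more entries, a grouping made after the values were seen. The range of the log2 ratio within a seed group had a median of 0.62 and went from 0.07 in the miR-30 group to 1.26 in the miR-130/301 group. The miR-181 group had a range of 0.81, exceeded by the miR-130/301 and miR-1947-3p groups. Without the filter on steps 18 seeds had 3 or more entries, their ranges had a median of 0.79, and the miR-181 group was in place 9, near the middle. With the filter on steps, the median log2 ratio was below 0 in all 13 groups. It went from -0.56 in the miR-15a-5p group to -0.009 in the miR-1947-3p group. The -0.37 of the miR-181 group lay within this span, near the -0.38 of the let-7 group and the -0.41 of the miR-29 group. The groups hold few entries each, and 680 of the 831 entries were matched to a RefSeq sequence by name.

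**Figure D3:**
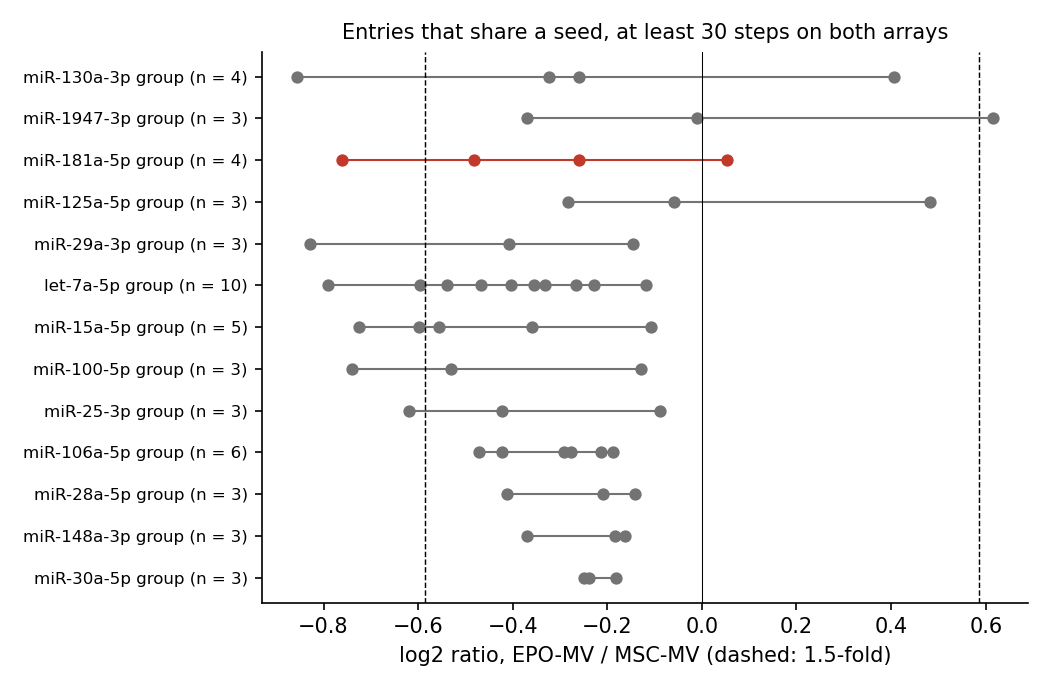
Log2 ratio of EPO-MV over MSC-MV for the entries with at least 30 steps on both arrays in the 13 groups of 3 or more such entries that share a seed, each group named by its first entry and ordered by its range, with dashed lines at 1.5-fold. The miR-181 group runs from -0.76 to 0.05, and among these 13 groups only those of miR-130a-3p and miR-1947-3p have a wider range; without the filter on steps the miR-181 group is in place 9 of 18.

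The list of other blood-cell miRNAs held 12 entries, of which 2 were past 1.5-fold as lower in EPO-MVs, 2 as higher and 8 neither, with a median log2 ratio of -0.13. The 4 entries past 1.5-fold are 33.3% of the list, beside 25.4% of all entries. With a minimum of 30 steps on each array it was 30.0% of 10 list entries beside 10.8% of all entries, and neither difference was tested. miR-146a-5p, which dampens inflammatory signalling, had 4.96 in EPO-MVs against 8.40 in MSC-MVs, a ratio of 0.591. miR-223-3p, the granulocyte miRNA, had 13.6 and 20.7, which gives 0.659. miR-144-3p, an erythroid miRNA, had 0.340 in EPO-MVs against 0.195 in MSC-MVs, a ratio of 1.75. Also past the limit as higher was miR-146a-3p with 1.58, from 5 steps and 3 steps, and a shift of 1 step in each value moved it to between 0.949 and 2.85. Of the entries within 1.5-fold, miR-142-3p, found across blood cells, had a ratio of 0.900, the erythroid miR-451a 0.902 and the lymphoid miR-150-5p 1.36.

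The labelled cell type was set beside 7 entries of miRNAs typical of stromal cells (miR-21a-5p, miR-143-3p, miR-145a-5p, both arms of miR-199a, miR-214-3p and miR-125b-5p) and 5 entries that mark blood cells (miR-142-3p, miR-144-3p, miR-150-5p, miR-223-3p and miR-451a). The stromal entries had 3313 to 37150 steps in EPO-MVs and 4228 to 40369 in MSC-MVs, and the blood-cell entries had 160 to 20714 and 87 to 21839. None of either list was near the smallest value, and since probes differ these steps do not tell how much RNA of either cell type was present. The medium of both groups held fetal bovine serum, and its part in these values was not tested. The ratios of the stromal entries went from 0.648 to 0.873, all below 1, as were 63.0% of the brightest group, to which they belong. Their summed intensity was 191 for EPO-MVs and 246 for MSC-MVs. That of the blood-cell entries was 62.8 and 74.7, and of their ratios those of miR-144-3p and miR-150-5p were above 1. Such sums weight each entry by the brightness of its probe. The sum over all entries was also lower in EPO-MVs, 1957 against 2147, and the part of these sums in the miR-181 ratios was not tested.

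**Figure D4:**
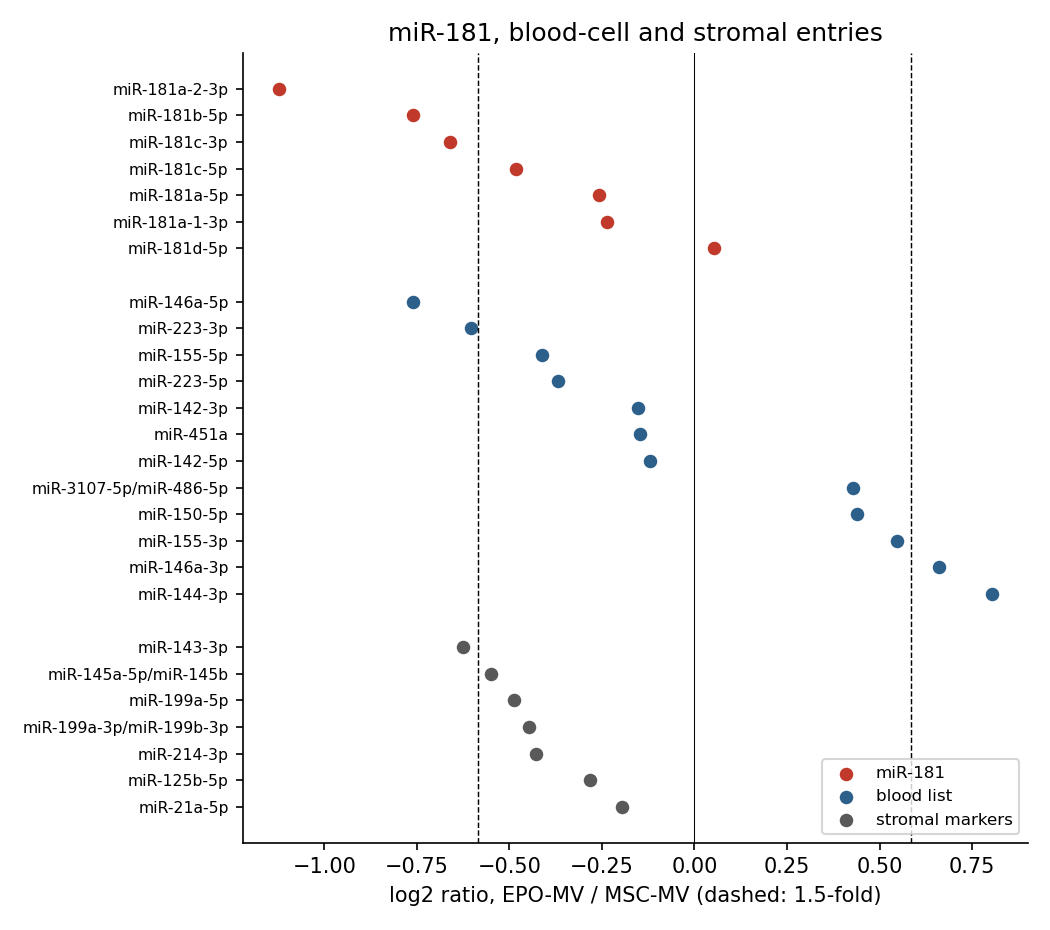
Log2 ratio of EPO-MV over MSC-MV for the 7 miR-181 entries, the 12 entries of the blood-cell list and the 7 stromal entries, ordered within each group, with dashed lines at 1.5-fold. The miR-181 entries run from -1.12 to 0.05, the blood-cell entries lie on both sides of 0, and the stromal entries are all below 0.

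The members were then followed through the deposited scaling and 4 others. miR-181b-5p had ratios from 0.570 to 0.628 and was past 1.5-fold as lower in EPO-MVs in all 5. miR-181d-5p had ratios from 1.00 to 1.12 and miR-181a-5p from 0.807 to 0.890, all within 1.5-fold. miR-181a-1-3p likewise stayed within it, from 0.722 to 0.910. miR-181c-5p had 0.623 to 0.809 and was past 1.5-fold only with quantile normalization and after lowess. miR-181a-2-3p had 0.361 to 0.704, and it was within 1.5-fold only with a pseudocount of 0.0573, which exceeds its EPO-MV value. The ratio of miR-181c-3p moved most, from 0.300 to 0.962. In all 5 scalings 6 of the 7 entries had a ratio below 1, or 5 without miR-181c-3p, whose direction a shift of 1 step turns.

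**Figure D5:**
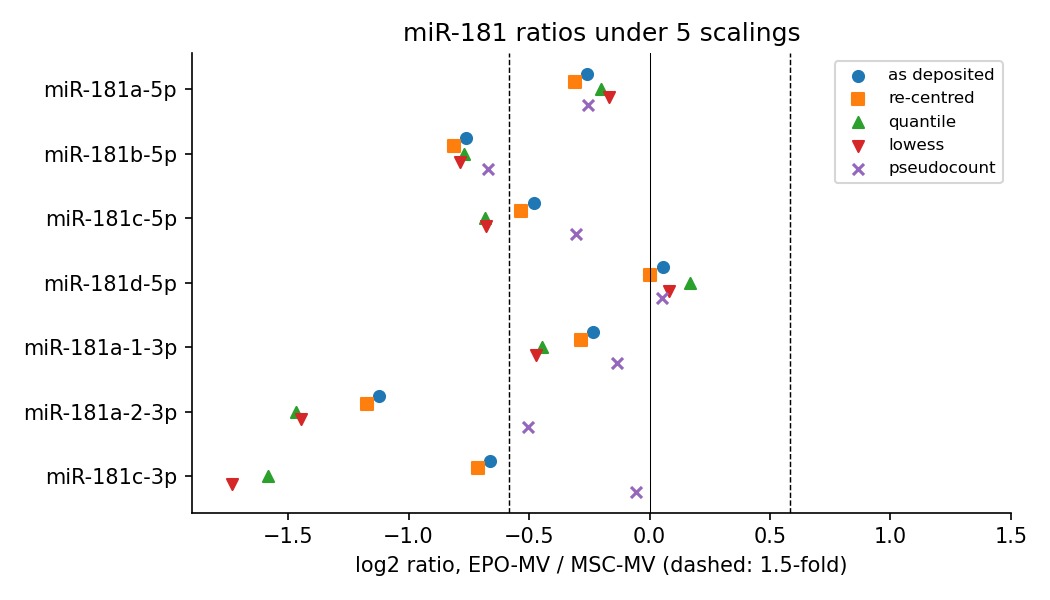
Log2 ratio of EPO-MV over MSC-MV of the 7 miR-181 entries under 5 scalings (markers), with dashed lines at 1.5-fold. The markers of miR-181b-5p all lie left of the lower line, those of miR-181a-5p, miR-181d-5p and miR-181a-1-3p all lie between the lines, and those of the other 3 entries lie on both sides of the lower line.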

How the data were processed

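RNA of EPO-MVs (1 array) and MSC-MVs (1 array) was labelled (Hy3 per the labels), hybridized to the miRCURY LNA Array (v.18.0), scanned with an Axon GenePix scanner and read with GenePix Pro 6.0. The authors averaged spots of the same miRNA and deposited median-normalized intensity values, with a factor set by those miRNAs whose intensity reached 30 in each sample. The channel read, any background correction and the selection of the 831 entries are not given in the sources used here, and the number of arrays limits the precision.

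Ratios of the deposited values were computed without pseudocount or filter, and no test was possible with 1 array per group. The fold limit of 1.5 is the one the study used. The members and lists were chosen with earlier results of these data known. Named were all miR-181 entries, any other entry with the seed of their 5p arms and all entries of the blood-cell list (stems miR-142, miR-144, miR-146a, miR-150, miR-155, miR-223, miR-451 and miR-486). With 2 arrays, no entries could be called most like miR-181.

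The alternatives were limits of 2 and 1.2, re-centring on the median log2 ratio, quantile normalization, removal of a lowess curve (span 0.4, 3 iterations), addition of the 25th percentile of the values (pseudocount), and a minimum of 30 steps on each array. A minimum of 60 steps and a shift of each value by 1 step were added after seeing the data. Sequences came from RefSeq (GRCm38.p6), matched by miRNA name. The counting was tested on simulated data. Python 3.11.15, pandas 2.3.3, numpy 2.4.6, statsmodels 0.14.6 and matplotlib 3.10.9 were used.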

Additional observations from a re-analysis of the deposited data

How the results depend on the processing

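The number of miR-181 entries past 1.5-fold, 3 in the deposited values, was 1 at a limit of 2, 1 with the pseudocount, 1 of 5 with at least 30 steps on both arrays and 1 of 3 with at least 60 steps. It was 4 at a limit of 1.2, with quantile normalization and after lowess, and 3 after re-centring. Over all entries the 211 past 1.5-fold became 88 at a limit of 2, 460 at 1.2, 54 with the pseudocount, 62 of 573 (10.8%) with at least 30 steps and 40 of 463 (8.64%) with at least 60 steps. On the blood-cell list 0 entries were past 2-fold and 9 past 1.2-fold, against 4 past 1.5-fold. The median log2 ratio of the miR-181 entries, -0.48, was -0.68 with quantile normalization, -0.68 after lowess, -0.25 with the pseudocount, and -0.26 with at least 30 or at least 60 steps. That of the 5p arms, -0.37, was -0.26 with at least 60 steps, which leaves out miR-181c-5p. The ratio of miR-181c-3p turned to 1.42 when its values of 2 and 3 steps were each moved by 1 step. Stricter limits and filters lower counts by construction, a pseudocount shrinks the ratios of dim entries, and the cause of the other shifts was not tested. Background intensity is unknown here. No paired analysis was possible because each group had 1 array.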
